A study of Mus musculus with 12 samples.

Results

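The genes described here are 10 angiogenic factors and endothelial surface proteins, namely Vegfa, Pgf, Kdr, Flt1, Tek, Tie1, Angpt2, Pecam1, Cdh5 and Esm1. They were chosen by name, and their values were obtained by summing the transcripts of each gene, so 10 of the 35944 genes in the tables are treated. RNA-Seq was performed on 12 tumours, 1 library each, grown from 100000 cells of 4T1, a mouse mammary carcinoma line, placed subcutaneously in BALB/c females, 6 to 8 weeks old, on the right flank. The line and the host are of the same strain, so reads from tumour and host cells cannot be told apart. Every mouse then received injections beside the tumour of extracellular vesicles (EVs) released by MS-1 mouse endothelial cells, at 3 µg per injection every 2 days, until harvest on day 21. The vesicles of each group had been electroporated with a different synthetic miRNA. The control (ctrl) was cel-miR-67, a nematode miRNA, and the endothelial miRNAs were miR-142-5p in the first group, miR-183-5p in the next and miR-222-3p in the last. Each group held 3 tumours, and no group without vesicles was analysed here. The question addressed is whether tumours that received an endothelial miRNA in vesicles differed from ctrl tumours, or from each other, in the RNA of genes that drive or mark blood vessels.

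New vessels grow when VEGF ligands, released by tumour and stromal cells that lack oxygen, bind tyrosine kinase receptors on endothelial cells. KDR (VEGFR2) carries most of the growth signal, whereas FLT1 (VEGFR1) binds the ligand tightly, signals weakly and is also made as a secreted form that traps VEGF. A separate pair of receptors, TEK (TIE2) and TIE1, responds to angiopoietins and governs vessel stability, with ANGPT2 acting in large part as an antagonist that loosens vessels. PECAM1 (CD31) and VE-cadherin (CDH5) hold endothelial cells together, and ESM1 is a secreted proteoglycan typical of tip cells, the cells that lead a sprout. On GRCm38, Vegfa lies at chr17:46016993-46032369, Pgf at chr12:85166635-85177790, Flt1 at chr5:147561604-147726011 and Kdr, on the same chromosome, at chr5:75932827-75978458. Tek (chr4:94739289-94874976) and Tie1 (chr4:118471191-118490061) also share a chromosome, as do Angpt2 (chr8:18690263-18741562) and Cdh5 (chr8:104101625-104144511), while Pecam1 is at chr11:106654217-106750628 and Esm1 at chr13:113209659-113218098.

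The mature sequences of the 3 endothelial miRNAs are shown because a direct effect on a transcript would pass through the seed, bases 2 to 8, given in capitals. They are taken from RefSeq on GRCm38.p6, which names the mouse miR-142-5p miR-142a-5p, and they are written 5′ to 3′.
miR-142-5p: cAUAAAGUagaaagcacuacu
miR-183-5p: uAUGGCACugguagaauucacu
miR-222-3p: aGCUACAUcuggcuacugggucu
The 3 seeds differ from each other. Seed matches were searched in the 3′ UTR of the coding transcript with the highest mean level of each gene, as 8mers, as 7mers that pair with bases 2 to 8 (7mer-m8) or as 7mers that pair with bases 2 to 7 and are followed by A (7mer-A1). MiR-142-5p had 1 match in each of 3 members, Angpt2, Flt1 and Kdr, and neither miR-183-5p nor miR-222-3p had any match in the 10 members. Over 14362 genes with a 3′ UTR in the tables, 21.3% held a match to miR-142-5p, 14.8% to miR-183-5p and 16.0% to miR-222-3p. The matches are printed with their flanks, the match in capitals, in the sense of the transcript on GRCm38.
Angpt2 (7mer-m8, chromosome 8, 18690869 to 18690875, minus strand): ttcagaacacaACTTTATgcttagaattgt
Flt1 (7mer-A1, chromosome 5, 147636542 to 147636548, minus strand): ttattttgtggCTTTATAtgctgcttgtgt
Kdr (7mer-A1, chromosome 5, 75932856 to 75932862, minus strand): atgtttatatgCTTTATAaaccaataaacg
The Flt1 match lies in the 3′ UTR of the transcript of the secreted receptor. A match is a description of the letters in this window and was not tested as a target site.

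Libraries held 20285968 to 27021401 estimated reads, and every member had at least 49 reads in every tumour. Pairs of libraries from the same group differed by more than sampling noise, with a chi-square per degree of freedom between 13.1 and 56.0. The labels number the tumours but do not state more about the animals, so p-values measure the spread between these tumours. In 4 libraries (the 3 of miR-222-3p and miR-183-5p tumour 3), the mitochondrial pseudogene Gm28661 held at most 0.324% of the reads shared with its source mt-Co2, against 7.13% to 41.8% in the other 8, so this division of the libraries cannot be told apart from the miR-222-3p group. MiR-183-5p tumour 3 stood apart in skeletal muscle markers (5 genes, 336.5 TPM in sum against at most 25.7 in the other tumours) and miR-142-5p tumour 3 in lymphatic markers (7 genes, 324.8 TPM against at most 17.9), of which Ccl21a held up to 315.4 TPM. The labelled tissue carried its defining markers, with 7 carcinoma genes between 1650 and 2568 TPM in sum and 29 endothelial identity genes between 369.2 and 563.4 TPM.

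Vegfa, the main VEGF ligand, was the most abundant member in each of the 12 tumours, with 219.2 ± 53.9 TPM (a relative transcript level corrected for length; SD, n = 12). Pgf, a ligand that binds FLT1 but not KDR, followed with 71.9 ± 12.0 TPM. The junction proteins came next, Pecam1 at 45.5 ± 8.65 TPM and Cdh5 at 32.1 ± 7.98 TPM. Angpt2 reached 24.3 ± 3.22 TPM, Flt1 18.7 ± 1.958 TPM, Tie1 11.3 ± 2.35 TPM, Esm1 9.34 ± 5.29 TPM and Kdr 5.97 ± 1.20 TPM. Tek was the scarcest, at 1.32 ± 0.483 TPM. The order was steady, since each gene stood above the next in at least 11 tumours, with the exception of Esm1, which was above Kdr in 9 of 12 tumours. In Esm1 and Kdr the spread between tumours was therefore as large as the step between the genes, and the order of neighbours was not tested.

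**Figure D1:**
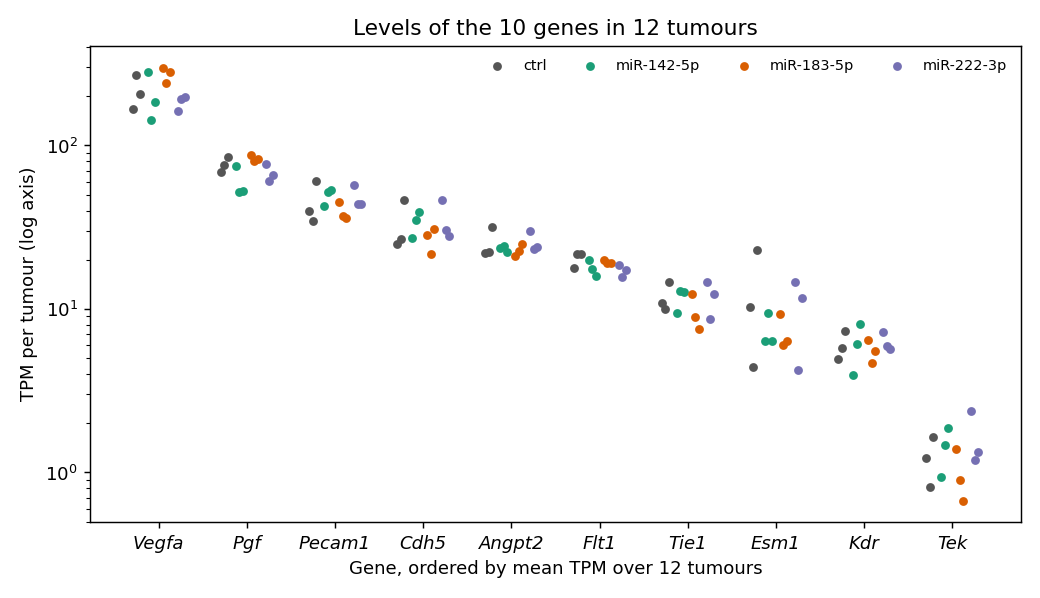
Level of each gene in each tumour, in TPM on a log axis, with genes ordered by their mean and points coloured by group. Vegfa lies above the other genes in 12 of 12 tumours and Tek below 2.4 TPM. Within each gene, every miRNA group overlaps ctrl. The miR-183-5p tumours lie above each miR-222-3p tumour in Vegfa, Pgf and Flt1, and above each miR-142-5p tumour in Pgf.

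Gene-level TPM is raised by short transcripts that code for no protein, most of all in 2 members. Transcripts of Vegfa that retain an intron held 59.8% to 69.0% of its TPM, but 20.4% to 27.6% of its estimated reads, and its coding transcripts together had 76.0 TPM on average (46.6 to 99.7). In Angpt2, a 5-exon transcript without coding sequence held 42.0% to 62.4% of the TPM and 8.80% to 18.2% of the reads, which leaves 11.9 TPM for the coding transcript of 9 exons. Noncoding transcripts also held 7.32% to 15.8% of the TPM of Pgf (2.92% to 7.0% of its reads) and 1.42% to 23.4% of that of Flt1 (0.282% to 1.3%). On coding transcripts alone Vegfa (76.0 TPM) stayed above Pgf (64.3 TPM) in the mean, whereas Angpt2 (11.9 TPM) fell below Flt1 (17.2 TPM). The counts compared below carry an offset for transcript length, which depends on this assignment.

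Normalised read counts, which are comparable between tumours within a gene, are given next for each member in the order tumour 1, 2 and 3. In ctrl tumours, Vegfa had 3803, 5584 and 4094 normalised counts, and in miR-142-5p tumours 6407, 3059 and 3628. MiR-183-5p tumours had 6287, 5297 and 6025, and miR-222-3p tumours 3222, 4073 and 4414. The miR-183-5p tumours lay above each miR-222-3p tumour and overlapped ctrl through ctrl tumour 2. The miR-142-5p group held both the highest and the lowest value of the series.

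Pgf had 1611, 1596 and 1716 normalised counts in ctrl tumours and 1731, 1133 and 1063 in miR-142-5p tumours. It had 1874, 1794 and 1791 in miR-183-5p tumours and 1543, 1307 and 1484 in miR-222-3p tumours. Here the miR-183-5p tumours were the 3 highest of the 12, above each tumour of every other group, and the miR-222-3p tumours lay below each ctrl tumour. MiR-142-5p tumour 1 lay just above the ctrl tumours and the other 2 of its group were the lowest of the series, the division already seen for Vegfa. In TPM, the separations of Pgf from ctrl did not hold. Ctrl tumour 3 (84.9 TPM) was above miR-183-5p tumours 2 and 3 (80.7 and 82.1 TPM). MiR-222-3p tumour 1 (76.6 TPM) was above ctrl tumours 1 and 2 (69.0 and 76.1 TPM). Angpt2 had the narrowest range of the ligands, from 644.6 to 921.7 normalised counts, and its groups overlapped in each comparison.

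Among the receptors, Flt1 had 1895, 2076 and 2008 normalised counts in ctrl tumours and 2088, 1748 and 1468 in miR-142-5p tumours. It had 1940, 1933 and 1907 in miR-183-5p tumours and 1696, 1543 and 1776 in miR-222-3p tumours, which lay below each ctrl and each miR-183-5p tumour. Kdr had 507.8, 532.7 and 657.0 in ctrl tumours, 403.0, 585.3 and 722.9 in miR-142-5p tumours, 607.7, 455.5 and 529.9 in miR-183-5p tumours and 644.3, 564.2 and 564.4 in miR-222-3p tumours. The lowest and the highest Kdr value both came from the miR-142-5p group, in tumours 1 and 3. In TPM, Flt1 was higher in miR-222-3p tumour 1 (18.5) than in ctrl tumour 1 (17.8).

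Tek had 95.6, 56.9 and 111.0 normalised counts in ctrl tumours and 72.1, 107.1 and 125.7 in miR-142-5p tumours. It had 98.9, 66.8 and 49.1 in miR-183-5p tumours and 159.8, 86.1 and 100.2 in miR-222-3p tumours, so that miR-183-5p held the lowest tumour, miR-222-3p the highest, and the groups overlapped. Tie1 ranged from 488.5 in miR-183-5p tumour 3 to 883.2 in ctrl tumour 3, again with overlap of the groups.

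Pecam1 had 2114, 1637 and 2799 normalised counts in ctrl tumours, 2249, 2561 and 2453 in miR-142-5p tumours, 2175, 1866 and 1780 in miR-183-5p tumours and 2634, 2141 and 2256 in miR-222-3p tumours. Each miR-183-5p tumour was below each miR-142-5p tumour, and the ctrl tumours spanned both. Cdh5 ranged from 1418 in miR-183-5p tumour 2 to 2724 in ctrl tumour 3. Esm1 was the most variable member, with 349.6, 135.3 and 681.0 in ctrl tumours, a range that contained each tumour of the other groups but miR-222-3p tumour 2 (133.8). Its highest tumour held 5.09 times the count of its lowest, against 1.42 times for Flt1. In TPM, Pecam1 was higher in miR-183-5p tumour 1 (44.8) than in miR-142-5p tumour 1 (42.9).

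**Figure D2:**
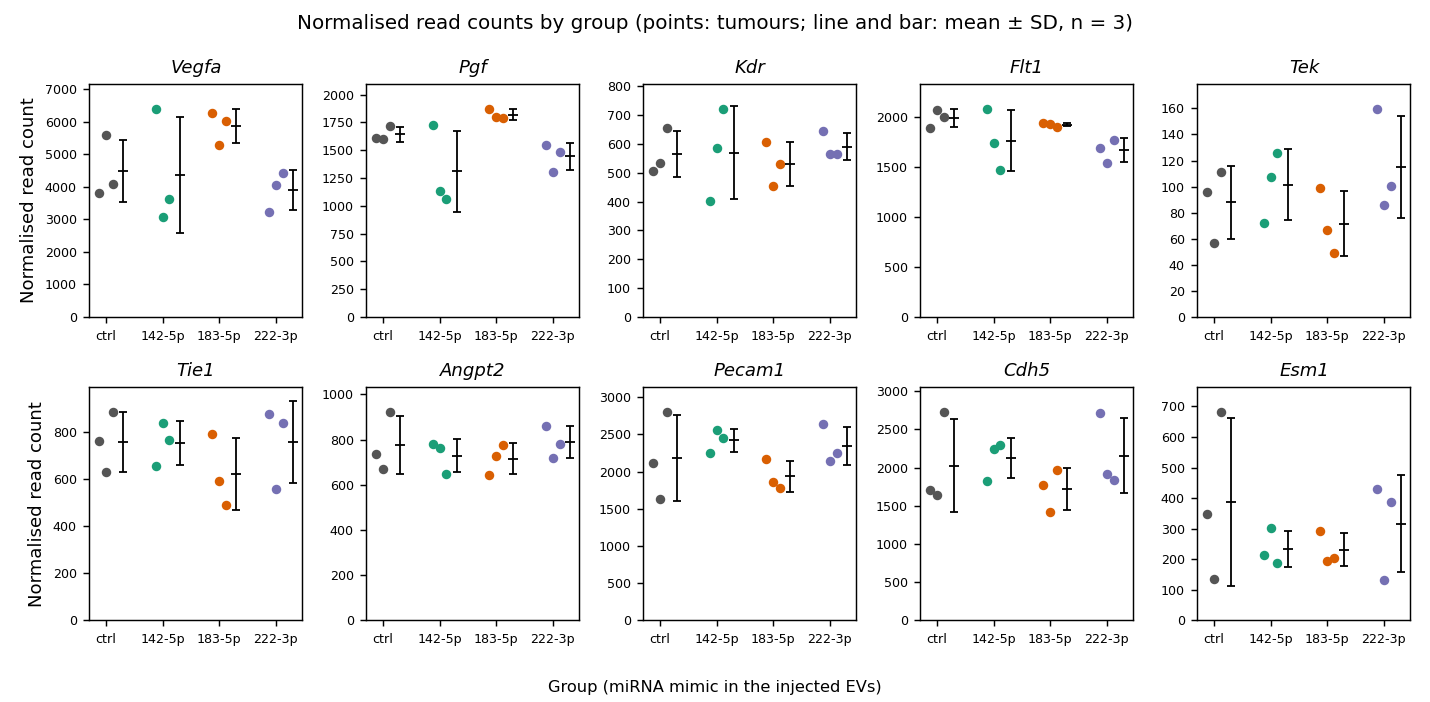
Normalised read counts of the 10 genes (linear axes from 0) by miRNA mimic, with 1 point per tumour and the mean ± SD of 3 tumours beside the points. Pgf shows the 3 miR-183-5p tumours above the others, Vegfa and Pgf show miR-142-5p tumour 1 apart from tumours 2 and 3, and Esm1 shows the wide spread of ctrl tumours.

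None of the 10 members was called in any of the 3 comparisons against ctrl (DESeq2, Benjamini-Hochberg adjusted p under 0.05 over all genes tested), and none had an unadjusted p under 0.05. Few genes were called at all. The share of genes called was 0.00648% in the miR-142-5p comparison, 0.0% in that of miR-183-5p and 0.0259% in that of miR-222-3p, and the share with an unadjusted p under 0.05 was 3.58%, 3.21% (495 genes) and 2.31%. With edgeR and with limma on log2(TPM + 1), no member and no other gene was called in these comparisons. Groups did not overlap in 0 members for miR-142-5p against ctrl (6.08% of all genes), in 1 for miR-183-5p against ctrl (Pgf, higher; 9.2% of all genes) and in 2 for miR-222-3p against ctrl (Pgf and Flt1, both lower; 5.52% of all genes). That holds for normalised counts, and in TPM the groups overlapped in each of these cases. The median log2 fold change of the 10 members was -0.02, -0.14 and 0.01 in these 3 comparisons, against -0.01 over all genes in each.

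The widths of the intervals set what these comparisons can show. Vegfa was 0.39 higher in miR-183-5p than in ctrl tumours on the log2 scale (SE 0.25, 95% interval -0.10 to 0.87, DESeq2 unadjusted p = 0.121, adjusted p = 1.0), which is 1.31-fold. In miR-142-5p tumours its difference was -0.04 (SE 0.25), and in miR-222-3p tumours -0.20 (SE 0.25). Pgf was nearest to the threshold for miR-142-5p, with -0.33 (SE 0.17, interval -0.66 to 0.01, unadjusted p = 0.0570), and Flt1 for miR-222-3p, with -0.25 (SE 0.13, interval -0.51 to 0.00441, unadjusted p = 0.0541). Adjusted p was 1.0 for both. Kdr, the receptor that carries most of the VEGF signal, differed from ctrl by 0.01, -0.09 and 0.06 (SE 0.21 each), with intervals that together ran from -0.50 to 0.47.

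For the angiopoietin receptors the intervals were wider. Tek differed from ctrl by 0.21, -0.29 and 0.40 in the same order of groups (SE 0.37 each), and Tie1 by -0.01, -0.28 and -0.000978 (SE 0.22 each). Angpt2 lay within 0.12 of ctrl in each group (SE 0.15). Pecam1 differed by 0.15, -0.17 and 0.10 (SE 0.18) and Cdh5 by 0.07, -0.24 and 0.09 (SE 0.22). Esm1 had the largest differences, -0.73 for miR-142-5p and -0.75 for miR-183-5p (SE 0.48 each, unadjusted p = 0.129 and 0.119 by DESeq2), and these rest on ctrl tumour 3, without which they were -0.0462 and -0.0657. Of the 3 members with a seed match to miR-142-5p, none passed the test in miR-142-5p tumours, where Angpt2 differed from ctrl by -0.09, Flt1 by -0.17 and Kdr by 0.01.

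**Figure D3:**
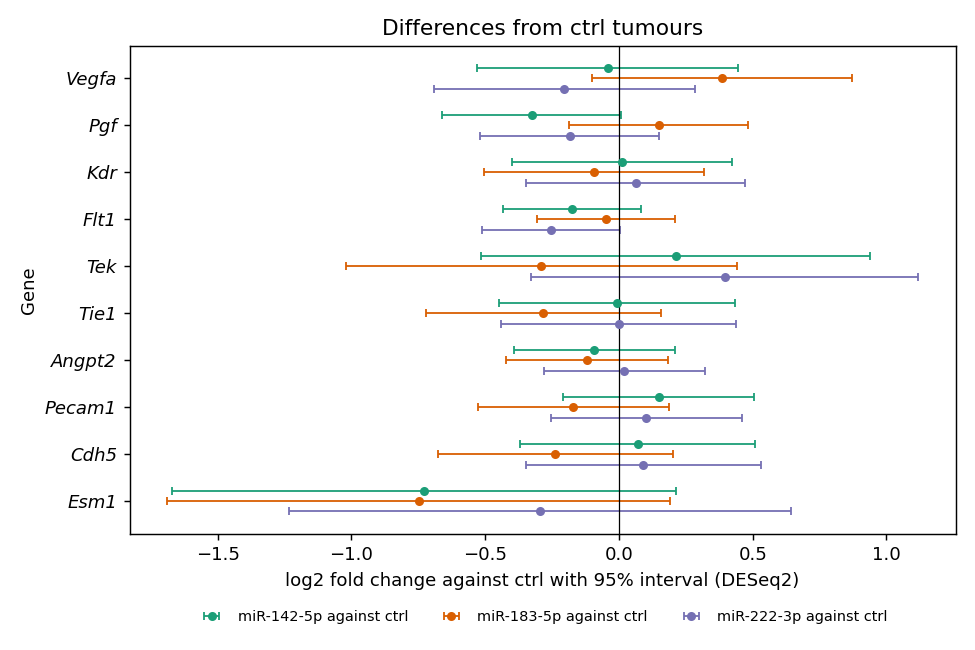
Log2 fold change of each gene against ctrl with its 95% interval (DESeq2, 3 tumours a group), coloured by the miRNA of the vesicles. Each interval includes 0, and the intervals of Esm1 are the widest, from -1.69 to 0.64.

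Between the miRNA groups, no member was called either. Pgf and Vegfa had the lowest unadjusted p by DESeq2, and Tek had the largest difference. Pgf was 0.48 higher on the log2 scale in miR-183-5p than in miR-142-5p tumours (1.39-fold, SE 0.17, unadjusted p = 0.00552, adjusted p = 0.309, DESeq2) and 0.33 higher than in miR-222-3p tumours (SE 0.17, unadjusted p = 0.0515). Vegfa was 0.59 higher in miR-183-5p than in miR-222-3p tumours (1.504-fold, SE 0.25, unadjusted p = 0.0177, adjusted p = 0.999) and 0.43 higher than in miR-142-5p tumours (SE 0.25, unadjusted p = 0.0852). Flt1 was 0.20 higher in miR-183-5p than in miR-222-3p tumours (SE 0.13), with no overlap of the groups. The vessel wall genes pointed the other way without passing the test. Pecam1 differed by -0.32 (SE 0.18, unadjusted p = 0.0795) from miR-142-5p tumours, and Tek by -0.69 (SE 0.37, unadjusted p = 0.0630) from miR-222-3p tumours.

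The shares over all genes are given beside the members for the same comparisons. When miR-183-5p tumours were set against miR-142-5p tumours, 0.0518% of all genes were called, 7.94% had an unadjusted p under 0.05 (1 of the 10 members, Pgf) and 12.4% had groups that did not overlap (2 members, Pgf higher and Pecam1 lower). Against miR-222-3p tumours, these shares for miR-183-5p were 0.0324%, 3.25% (1 member, Vegfa) and 9.07% (3 members, Vegfa, Pgf and Flt1, each higher). Between the miR-142-5p and miR-222-3p groups they were 0.0389%, 3.62% and 6.23%, with 0 members in each. The likelihood ratio test over the 4 groups called no member and 0.0583% of all genes, and the lowest unadjusted p among members was that of Pgf, 0.0313 (adjusted p = 0.930, DESeq2).

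The result for Pgf and Vegfa in the miR-142-5p group rested on tumour 1, which held their highest counts in its group. Without it, Pgf was called in miR-142-5p against ctrl (log2 fold change -0.58, DESeq2). Both Pgf (0.73) and Vegfa (0.81) were then called as higher with miR-183-5p than with miR-142-5p. In that setting 76 of 15432 genes tested were called against ctrl, where the fit of 12 libraries called 1. Between these miRNA groups 414 of 14533 were called, where that fit called 8. The remaining 2 tumours were taken to vary like the other groups. The tumour was singled out by these same counts, so the calls do not test an effect on either gene. No label sets this tumour apart.

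The differences among tumours were shared between members. Counts of the 10 genes, on the scale log2(normalised count + 1), were correlated over the 12 tumours in 45 pairs, and p-values came from 100000 two-sided permutations, with Benjamini-Hochberg adjustment over the 45. By Pearson's r, 11 pairs passed, 10 of them positive, and by Spearman's rho 15 passed, with 10 pairs passing by both. The count by Pearson's r fell to 5 without miR-222-3p tumour 3, to 6 without ctrl tumour 2, miR-183-5p tumour 2 or miR-183-5p tumour 3, and to 7 without miR-142-5p tumour 2 or miR-222-3p tumour 1. Points share libraries and depth. For each pair named below that passed by Pearson's r, the share of all genes tested that reach its r with 1 gene of the pair is therefore given.

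Vegfa, Pgf and Flt1 varied together. Pgf and Flt1 had r = 0.805 (permutation p = 0.00273, adjusted 0.0207) and rho = 0.734 (permutation p = 0.00868, adjusted 0.0357), and r = 0.771 without the 2 tumours farthest from the Pgf median. Of all genes tested, 0.304% reached that r with Pgf. Vegfa and Pgf had r = 0.72 (permutation p = 0.00709, adjusted 0.0399) and rho = 0.762 (permutation p = 0.00567, adjusted 0.0319), and r = 0.655 without 2 tumours, while 3.5% of genes reached it with Vegfa. For Vegfa and Flt1, r = 0.647 (permutation p = 0.0237) did not pass after adjustment (0.0712), and rho = 0.776 did (permutation p = 0.00448, adjusted 0.0288). This relation depends on the length offset, without which r was 0.395. In miR-142-5p tumour 1, where the normalised Flt1 count was highest, a short noncoding Flt1 transcript of 2 exons held 4.17 TPM, against at most 1.91 TPM in the other tumours.

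A second set held the angiopoietin receptors and the junction proteins. Tek and Pecam1 had the highest r of the 45 pairs, 0.872 (permutation p = 0.00023, adjusted 0.00922), with rho = 0.909 (permutation p = 0.00014, adjusted 0.0063) and r = 0.768 without 2 tumours, an r that 0.181% of all genes reached with Tek. Tek and Tie1 followed with r = 0.849 (permutation p = 0.00041, adjusted 0.00922), rho = 0.867 (permutation p = 0.0006, adjusted 0.009) and r = 0.763 without 2 tumours, which 0.342% of genes reached. Pecam1 and Cdh5 had r = 0.808 (permutation p = 0.00175, adjusted 0.0207), rho = 0.79 (permutation p = 0.00349, adjusted 0.0262) and r = 0.753 without 2 tumours. With Pecam1, 1.16% of all genes reached that r of 0.808. Kdr was tied more to Cdh5 (r = 0.705, permutation p = 0.0103, adjusted 0.0452; rho = 0.734, permutation p = 0.00861, adjusted 0.0357; r = 0.868 without 2 tumours) than to the other VEGF receptor, Flt1 (r = -0.594, permutation p = 0.0421, adjusted 0.105; rho = -0.462, permutation p = 0.133, adjusted 0.215; r = -0.205 without 2 tumours). The difference between these r values was not tested, and the latter was -0.125 without the length offset. With Kdr, 3.38% of all genes reached the r of Cdh5.

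Between the sets the sign was negative. Vegfa and Tek had r = -0.752 (permutation p = 0.00487, adjusted 0.0313) and rho = -0.692 (permutation p = 0.0155, adjusted 0.0492), with r = -0.904 without the 2 tumours farthest from the Vegfa median. Of all genes, 1.31% had an r with Vegfa as low as -0.752, and 3.15% had one with Tek. Vegfa and Tek were the only negative pair that passed. Vegfa and Pecam1 had r = -0.655 (permutation p = 0.0227, adjusted 0.0712) and rho = -0.531 (permutation p = 0.0806, adjusted 0.173), with r = -0.844 without 2 tumours, and did not pass. Esm1 went with Tie1 (r = 0.774, permutation p = 0.00276, adjusted 0.0207; rho = 0.811, permutation p = 0.00211, adjusted 0.019; r = 0.819 without 2 tumours) and with Angpt2, a fellow tip cell product (r = 0.703, permutation p = 0.011, adjusted 0.0452; rho = 0.734, permutation p = 0.00873, adjusted 0.0357; r = 0.701 without 2 tumours). With Esm1, 0.51% of all genes reached the r of Tie1 and 1.49% that of Angpt2.

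For the pairs given next, the sign did not come from the group means alone. After each group's mean was subtracted, r was 0.877 for Pgf and Flt1, 0.867 for Tek and Tie1, 0.756 for Pecam1 and Cdh5 and -0.64 for Vegfa and Tek. Within the 8 libraries of the larger library set, the same pairs had 0.852, 0.877, 0.884 and -0.667, and the smaller set, with 4 libraries, was too small for a correlation. Not every pair between the sets kept its negative sign once group means were subtracted. The exceptions were Pgf and Tie1 (0.0304), Pgf and Pecam1 (0.0514) and Flt1 and Tie1 (0.01). Flt1 and Tie1 also had r = 0.118 without the length offset. In bulk tumour RNA, fewer cells of a type and less RNA per cell cannot be told apart.

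**Figure D4:**
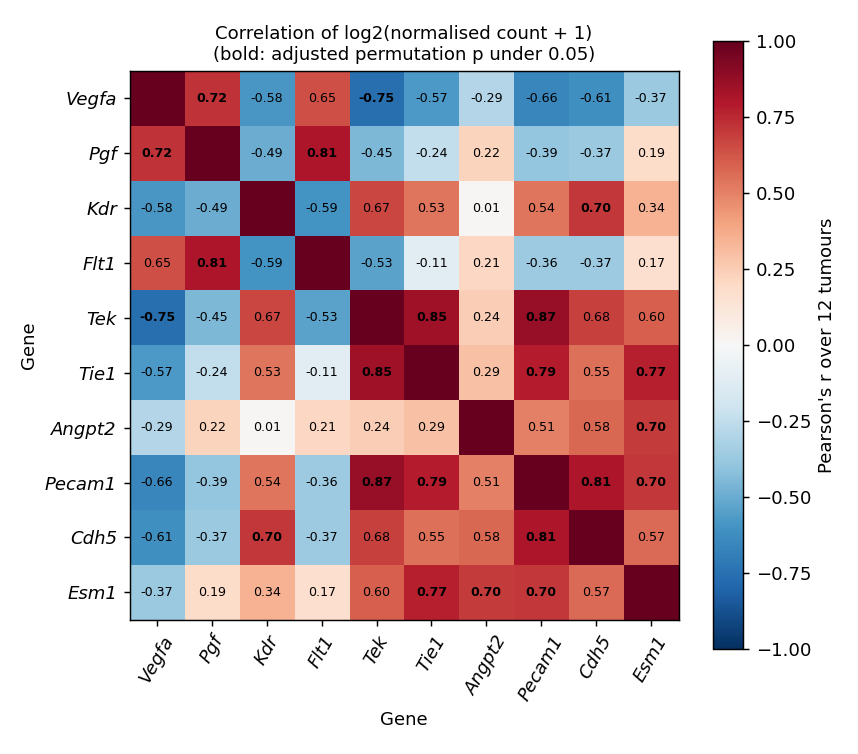
Pearson's r between the genes over 12 tumours, on log2(normalised count + 1), with positive values in red, negative values in blue and pairs with an adjusted permutation p under 0.05 in bold. Vegfa, Pgf and Flt1 are positively related, Kdr, Tek, Tie1, Pecam1 and Cdh5 are positively related, and r between the sets is negative, lowest for Vegfa and Tek.

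Markers of other cell types moved with both sets. Over 18 genes of the hypoxia response, the median r was 0.606 with Vegfa, 0.704 with Pgf and 0.503 with Flt1, against -0.415 with Tek and -0.279 with Pecam1, and medians over all genes lay between -0.01 and 0.02. Bnip3, a mitophagy receptor induced by low oxygen, had r = 0.893 with Pgf, and Ero1l, an endoplasmic reticulum oxidase, 0.886 with Vegfa. Other lists were related as closely with some of these genes, namely red blood cell genes with Vegfa and Flt1, and fibroblast genes with Vegfa. The same held for carcinoma genes with Flt1 (median r 0.514) and nearly so with Vegfa (0.598). The 5 red blood cell genes had a median r of 0.654 with Vegfa, 0.641 with Pgf and 0.691 with Flt1, each of the 5 positive, against -0.495 with Tek and -0.24 with Pecam1. The 7 fibroblast genes had a median r of 0.657 with Vegfa, 0.308 with Pgf and 0.13 with Flt1, against -0.596 with Tek and -0.677 with Pecam1. Epas1 (HIF-2α) departed from the hypoxia list, with 0.869 for Tek and -0.738 for Vegfa. For 24 endothelial identity genes outside the members, the median r was 0.616 with Tek, 0.658 with Tie1 and 0.66 with Pecam1, yet -0.162 with Flt1 and 0.392 with Kdr. For 8 leukocyte and macrophage genes it was 0.722 with Tek and 0.743 with Pecam1 but -0.597 with Vegfa, and for 7 carcinoma genes -0.643, -0.615 and 0.598. The part of these cell types in the relations between members was not tested.

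The 3 genes most like each member over the 12 tumours were listed from genes with a mean normalised count of at least 50. Tek was most like Cxcr4, a chemokine receptor that leukocytes also carry (r = 0.948), C130074G19Rik (0.942) and Trp53i11 (0.935). Tie1 was most like Plekhg5 (0.948), Hspa12b (0.911) and Nos3, the endothelial nitric oxide synthase (0.909). For Pecam1 the genes were Pccb (0.952), Foxq1 (0.936) and Cd34, a surface protein of endothelial and progenitor cells (0.934), and for Cdh5 Heg1, a junction receptor (0.946), Cdon (0.944) and Asap1 (0.942). Vegfa was most like Gja1 (connexin 43, r = 0.93), Csrnp1 (0.929) and Rtn4 (0.919), and Pgf most like Hcar2 (0.912), Rnf217 (0.908) and Il1f9 (0.906). The nearest genes were Ttc28 for Kdr (0.932), Fam114a2 for Flt1 (0.903), Cdadc1 for Angpt2 (0.888) and Lmbr1 for Esm1 (0.917). These r values were chosen for their size and have no p.

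Promoter windows are shown for 2 pairs, as a reference for their sequence. Tek and Tie1 were the receptors that moved most closely together, and Pgf and Flt1 the ligand and receptor that did so. Each window is 300 bases long, from 250 bases before to 50 after a start of the gene, from RefSeq on GRCm38.p6 in the sense of the gene, and for Pgf the first of its 2 windows is given. Capitals mark GGAA, the core bound by ETS factors, on either strand (TTCC on the other). ACGTG, the core of the hypoxia response element, was also searched on both strands, and the 2 motifs cannot share letters except at an end.
Tek, chr4:94739039-94739338 (plus strand): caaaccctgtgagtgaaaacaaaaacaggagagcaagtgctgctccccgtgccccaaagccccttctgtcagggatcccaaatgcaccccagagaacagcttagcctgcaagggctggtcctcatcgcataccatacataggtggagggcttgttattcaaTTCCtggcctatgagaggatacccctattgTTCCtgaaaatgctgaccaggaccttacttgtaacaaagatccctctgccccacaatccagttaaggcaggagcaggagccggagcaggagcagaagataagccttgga
Tie1, chr4:118489800-118490099 (minus strand): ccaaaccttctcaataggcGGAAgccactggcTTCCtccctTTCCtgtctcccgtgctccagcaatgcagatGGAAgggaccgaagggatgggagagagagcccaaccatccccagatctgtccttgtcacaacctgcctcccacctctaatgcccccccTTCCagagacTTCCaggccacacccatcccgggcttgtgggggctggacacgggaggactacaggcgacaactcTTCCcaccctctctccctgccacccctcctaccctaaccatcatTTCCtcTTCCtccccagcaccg
Pgf, chr12:85177264-85177563 (minus strand): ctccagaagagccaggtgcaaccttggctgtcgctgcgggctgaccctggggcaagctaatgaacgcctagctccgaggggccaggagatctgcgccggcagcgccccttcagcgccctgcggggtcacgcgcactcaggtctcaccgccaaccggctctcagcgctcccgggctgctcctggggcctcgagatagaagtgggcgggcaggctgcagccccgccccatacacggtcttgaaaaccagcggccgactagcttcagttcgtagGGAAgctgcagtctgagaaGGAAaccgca
Flt1, chr5:147725962-147726261 (minus strand): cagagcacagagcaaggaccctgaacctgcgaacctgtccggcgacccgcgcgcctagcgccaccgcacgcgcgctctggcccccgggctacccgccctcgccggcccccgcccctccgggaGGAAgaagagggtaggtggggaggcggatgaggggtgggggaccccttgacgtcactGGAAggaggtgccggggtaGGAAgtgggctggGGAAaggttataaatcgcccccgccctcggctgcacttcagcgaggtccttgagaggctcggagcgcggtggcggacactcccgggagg
GGAA occurred 2 times in the Tek window, 9 times in that of Tie1, 2 times in that of Pgf and 4 times in that of Flt1. Of 32851 windows of this length, 96.0% hold it, with a median of 3 matches, so its presence does not set these genes apart. ACGTG was in none of these 4 windows, in 1 of the 9 windows of the members (the second of Vegfa, with 1 match) and in 19.6% of all windows. Of the members, 7 had a window (Vegfa, Pgf, Kdr, Flt1, Tek, Tie1 and Esm1), and Angpt2, Pecam1 and Cdh5 did not.

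Flt1 is made as a membrane receptor and as a secreted one, and both were present in every tumour. The transcript with 30 exons and 1333 residues codes for the full-length receptor, and that with 13 exons and 688 residues lacks the kinase part. The secreted form had 9.88 TPM on average (7.80 to 12.4) and the full-length form 7.36 TPM (5.61 to 9.01). The secreted form held 57.7% ± 3.25 of the coding Flt1 TPM in ctrl tumours, 59.3% ± 4.47 with miR-142-5p, 55.6% ± 1.23 with miR-183-5p and 56.8% ± 3.16 with miR-222-3p (SD, n = 3 each), and at least 54.0% in each of the 12 tumours. The differences from ctrl were 1.56, -2.16 and -0.96 percentage points (two-sided exact permutation p = 0.5, 0.4 and 1.0, where 3 against 3 tumours allow no p under 0.1), and groups overlapped.

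Vegfa was assigned mainly to 2 coding transcripts. One, annotated with 7 exons and 368 residues, had 26.15 to 56.2 TPM, and the other, with 6 exons and 146 residues, 13.5 to 45.9 TPM. Transcripts for 170 residues (7 exons) and 392 residues (8 exons) were lower, at 4.58 and 2.41 TPM on average. In ctrl tumours the 368-residue form held 49.9% ± 6.39 of the coding Vegfa TPM, against 55.6% ± 9.96, 55.3% ± 1.74 and 51.5% ± 6.04 in the 3 miRNA groups in their order above. The 146-residue form held 38.8% ± 10.4 in ctrl tumours and 35.3% ± 11.2, 35.3% ± 2.64 and 43.4% ± 5.56 in these groups (SD, n = 3 each). The share of the 170-residue form was lower in each miR-222-3p than in each ctrl tumour, with 1.58% ± 1.51 against 8.64% ± 5.82 (exact permutation p = 0.1, the smallest possible; 0.84 after adjustment over 18 tests). This form rests on few estimated reads, 0, 11.7 and 8.66 in miR-222-3p tumours and 9.78, 65.9 and 23.8 in ctrl tumours. As estimated reads, the 2 groups overlapped. Salmon divides reads among transcripts that share exons, so estimated reads do not give the depth behind a share and no counting interval is given.

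**Figure D5:**
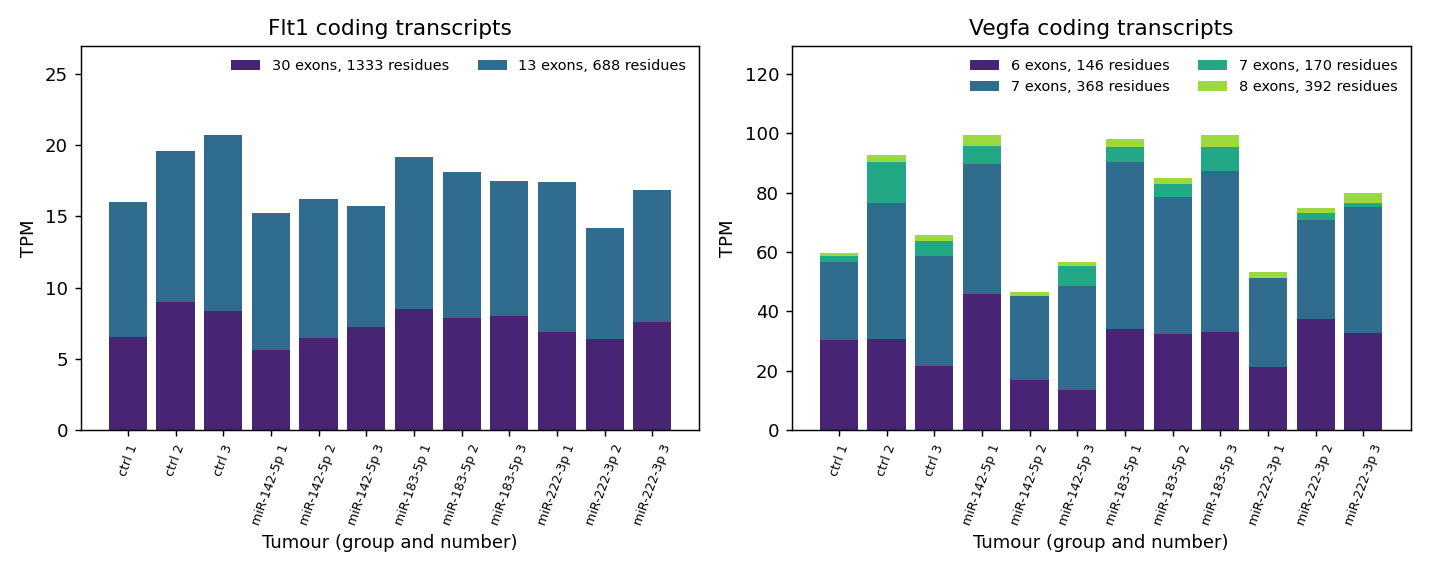
TPM of the coding transcripts of Flt1 (left) and Vegfa (right) in each tumour, stacked from 0. The secreted Flt1 form of 688 residues holds more than the full-length one of 1333 residues in 12 of 12 tumours, and the 146- and 368-residue forms hold most of the coding Vegfa RNA.

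The members were then set among 82 genes of 5 lists that describe vessel growth. None of the 82 was called against ctrl in any group, by DESeq2 or edgeR. Over all genes, 3.58%, 3.21% and 2.31% had an unadjusted DESeq2 p under 0.05 in the 3 comparisons. Among the 82, that p was reached by 1, 2 and 1 genes, no larger a share than over all genes. They were Dll4, the Notch ligand of tip cells, with miR-142-5p (-0.35, SE 0.16, unadjusted p = 0.0260), Aplnr, the apelin receptor, with miR-183-5p (0.90, SE 0.33) and with miR-222-3p (0.84, SE 0.33), and Nid2, a basement membrane protein, with miR-183-5p (-0.39, SE 0.19). The adjusted p was 1.0 in each case. Of 29 endothelial identity genes, 26 had a negative difference from ctrl with miR-183-5p (median log2 fold change -0.24, against -0.01 over all genes), 8 with miR-142-5p (median 0.07) and 11 with miR-222-3p (median 0.07), and none passed the test. These 29 include 5 members (Pecam1, Cdh5, Tie1, Kdr and Tek), of which Pecam1, Cdh5 and Kdr had a positive difference for miR-183-5p without ctrl tumour 3 (0.05, 0.04 and 0.03). In the same comparison 8 of 8 leukocyte and macrophage genes had a negative difference (median -0.32) and 6 of 7 fibroblast genes a positive one (median 0.50), and their part in the result was not tested. The lymphatic list had 4 of 7 genes in the fit, with Prox1, its defining factor, at no more than 21 reads in any tumour.

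No gene of the ligand and hypoxia lists was called in any comparison. Over all genes, 7.94% had an unadjusted DESeq2 p under 0.05 between miR-183-5p and miR-142-5p, and 3.25% between miR-183-5p and miR-222-3p. Of 18 vessel growth factors, 13 had a positive difference from miR-142-5p in miR-183-5p tumours (median 0.22), 2 of them with an unadjusted p under 0.05 (Pgf and Angpt4). Against miR-222-3p 10 of the 18 had a positive difference in miR-183-5p tumours (median 0.13), and against ctrl 11 (median 0.14). Of 18 hypoxia genes, 17 had a positive difference from miR-142-5p (median 0.31), 5 with an unadjusted p under 0.05, among them Ero1l (0.92, SE 0.27, DESeq2 adjusted p = 0.124) and Car9, a carbonic anhydrase (0.65, SE 0.19, adjusted p = 0.124), and 1 a negative one at that level, Epas1 (-0.49, SE 0.23). Against miR-222-3p the count was also 17 of 18 (median 0.30), 8 of them with an unadjusted p under 0.05, and against ctrl 14 of 18 (median 0.16). Against miR-142-5p, 8 of 8 leukocyte and macrophage genes had a negative difference (median -0.58), with Csf1r, the receptor that macrophages depend on, at -0.69 (SE 0.22, adjusted p = 0.166). Summed over the 8 genes, the level was 1078 to 1889 TPM in miR-183-5p tumours, 1836 to 3287 in miR-142-5p tumours, 1611 to 3105 in miR-222-3p tumours and 1520 to 2870 in ctrl tumours. The part of these cells in the differences of Pecam1 and Tek was not tested.

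Red blood cell RNA differed in miR-222-3p tumours without passing the adjusted test. All tumours of this group lie in the smaller library set, and the part of that division was not tested. The 5 genes summed to 150.5 to 272.3 TPM in miR-222-3p tumours, which lay below every other tumour. The sums were 360.6 to 450.4 in ctrl, 281.9 to 680.1 in miR-142-5p and 435.0 to 760.6 in miR-183-5p tumours. With miR-222-3p, Hbb-bt was -1.22 against ctrl (SE 0.36, DESeq2 unadjusted p = 0.000802, adjusted p = 0.619), Hbb-bs -0.83 (SE 0.36) and Hba-a2 -0.73 (SE 0.32). Each of the 5 genes had an unadjusted p under 0.05, which 2.31% of all genes had in this comparison. Globin genes are near copies, so reads may be split between them. Of the members, Esm1 (-0.30), Flt1 (-0.25), Vegfa (-0.20) and Pgf (-0.18) also had a negative difference in the miR-222-3p group, Tie1 one near 0, and Tek (0.40), Pecam1 (0.10), Cdh5 (0.09), Kdr (0.06) and Angpt2 (0.02) a positive one, and none was called. Pericyte and smooth muscle genes gave no call, and Des (3.58 with miR-183-5p, SE 1.03, adjusted p = 0.746), a filament of muscle cells, moved with the skeletal muscle markers of miR-183-5p tumour 3. Dcn, a fibroblast proteoglycan, was 0.50 and 0.55 with miR-183-5p and miR-222-3p (SE 0.20 each, adjusted p = 1.0).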

How the data were processed

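Polyadenylated RNA of 12 tumours was sequenced as 151-nt paired-end reads from strand-specific libraries. The authors quantified reads with Salmon and deposited, per transcript, expected counts (estimated reads, not whole), TPM values and effective lengths; the methods name Ensembl 90, the tables another release. Transcript identifiers were matched here without version to GENCODE M21 (GRCm38); 116710 of 118783 matched (98.25%), and the rest held 0.633% to 0.671% of reads. Expected counts were summed per gene and rounded, and deposited TPM values were summed.

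The 15485 genes that reached 10 reads in 3 or more libraries entered DESeq2 1.42.0 (R 4.3.3; Wald test, group as factor, 12 libraries, length offset; threshold 0.05). Alternatives were edgeR 4.0.16, limma 3.58.1 on log2(TPM + 1), TMM factors, other filters, no offset, 2 groups, a replicate block and each tumour left out. The scripts were tested on simulated data. Correlations and exact tests used scipy 1.17.1, plots matplotlib 3.10.9. Groups came from the labels. The members and lists were chosen with earlier results of these data known. Genes outside the members were named where they passed the adjusted test, otherwise up to 3 per list with the lowest unadjusted p under 0.05 against ctrl; those named for comparisons between miRNA groups, and Epas1, Bnip3 and Prox1, were chosen after their values were seen.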

Additional observations from a re-analysis of the deposited data

How the results depend on the processing

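No member was called, against ctrl or between miRNA groups, by edgeR, by limma on log2(TPM + 1), with TMM factors, without a count filter, without genes under 50 counts in some library, without the length offset, with 2 groups in the fit or with the replicate block. Tek, with 49 reads in miR-183-5p tumour 3, was not in the fit without genes under 50 counts. Leaving out 1 tumour gave 0 to 1 members called for miR-142-5p against ctrl, 0 to 2 for miR-183-5p versus miR-142-5p and 0 in the other comparisons. Of the 82 vessel genes, 0 to 1 were then called for miR-142-5p against ctrl and 0 for the others. These calls came without miR-142-5p tumour 1. Over all genes, fits of 2 groups called 36 genes for miR-183-5p against ctrl (0 in the fit of 12 libraries), 16 for miR-222-3p against ctrl (4), 68 between miR-183-5p and miR-142-5p (8), 18 between miR-183-5p and miR-222-3p (5) and 16 between miR-142-5p and miR-222-3p (6), whereas edgeR and limma called 0 in each.

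The replicate block changed no member's call. Same-numbered tumours did not deviate together on average (mean r = -0.0415, from -0.426 to 0.187, against a mean of 0.0206 for different numbers). With 3 tumours a group this cannot exclude a pairing, and the labels state none. With the block, Tie1 in miR-142-5p against ctrl was 0.0115, and the count over all genes went from 5 to 9 between miR-183-5p and miR-222-3p, from 0 to 1 for miR-183-5p against ctrl and stayed within 4 to 6 for miR-222-3p against ctrl.

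Some differences changed sign, none of them called. In miR-142-5p against ctrl, Kdr was -0.0215 with limma, and Tie1 was 0.00127 and Angpt2 0.0214 without the length offset. Without genes under 50 counts, Tie1 in miR-222-3p against ctrl was 0.00584. Without miR-142-5p tumour 3 and miR-183-5p tumour 3, a setting chosen after seeing the data, Vegfa was 0.0735 and Kdr -0.196 in miR-142-5p against ctrl. Leaving out 1 tumour moved the log2 fold change for miR-142-5p against ctrl between -0.426 and 0.160 for Vegfa, -0.196 and 0.210 for Kdr, -0.0242 and 0.419 for Tek, -0.126 and 0.119 for Tie1, -0.186 and 0.0512 for Angpt2, -0.0224 and 0.370 for Pecam1 and -0.0610 and 0.346 for Cdh5. For miR-183-5p against ctrl it lay between -0.201 and 0.0308 for Kdr, -0.215 and 0.0225 for Angpt2, -0.341 and 0.0510 for Pecam1 and -0.370 and 0.0371 for Cdh5. For miR-222-3p against ctrl it lay between -0.00974 and 0.186 for Kdr, -0.119 and 0.177 for Tie1, -0.0746 and 0.163 for Angpt2, -0.0685 and 0.324 for Pecam1, -0.113 and 0.366 for Cdh5 and -0.703 and 0.389 for Esm1. The cause was not tested.

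Of 45 correlated pairs, 14 passed on log2(TPM + 1) and 11 without the length offset, against 11 as reported. Leaving out 1 tumour, also chosen after seeing the data, gave 5 to 14. For the shares of coding TPM, the difference from ctrl in the 368-residue Vegfa form with miR-222-3p changed from 1.62 to -1.78 points when taken from estimated reads. Without 1 tumour, that difference lay between -1.48 and 4.96 points, the difference in the 146-residue form between -8.87 and 2.54 with miR-142-5p and between -6.55 and 2.52 with miR-183-5p, and the difference in secreted Flt1 between -0.354 and 4.02 with miR-142-5p and between -2.82 and 0.131 with miR-222-3p. The other differences in these 3 forms kept their sign. Depth limits Tek most, with 49 to 169 reads a tumour.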
